A study of Homo sapiens with 58 samples.

Results

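The genes described here encode the oxidative phosphorylation machinery from the nuclear genome, and the data are peaks of RNA crosslinked to HuR, the RNA-binding protein encoded by ELAVL1. A peak was taken as a member when its gene name began with NDUF (complex I and its assembly factors), UQCR (complex III), COX followed by a digit (complex IV and its assembly factors) or ATP5 (complex V, the ATP synthase), with pseudogene and -AS names left out. NDUFA4 was the exception and was counted with complex IV. Of 387214 peaks of 20 nt, 699 (0.181%) were members. They carried 75 gene names, of which 73 are protein-coding genes and COX10-DT and NDUFA6-DT are transcripts that start divergently from their namesakes and hold 76 of the peaks. Members held 11630 of the 7887093 tags in all peaks (0.147%), with 5 to 394 tags per peak over all libraries and a median of 9, against a median of 10 for all peaks.

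The libraries are HuR CLIP-seq from Huh-7.5, a human hepatocellular carcinoma line, kept without treatment (mock) or exposed during 45 min to sodium arsenite at 0.5 mM, an oxidative stressor that induces stress granules. Cells were crosslinked with 254 nm UV at 400 and then 200 mJ/cm2, and HuR was precipitated with antibody 3A2. Wild-type cells without any APEX enzyme were separated into nuclear and cytoplasmic fractions, with 3 libraries per fraction and treatment, all from library set JL0380. The other libraries came from lines carrying the peroxidase APEX fused to a nuclear localisation signal (NLS), to a nuclear export signal (NES) or to G3BP1 (labelled G3BP), a protein that nucleates stress granules, which were given biotin phenol for 30 min and hydrogen peroxide for 1 min. Input libraries of these lines had no streptavidin capture (NLS and NES 2 per treatment, G3BP 4 mock and 5 arsenite), and enriched libraries did (NLS and NES 4 per treatment, G3BP 6 mock and 7 arsenite). Nothing in the labels says that the replicates are separate cultures, so p-values measure the spread between these libraries, which may be technical.

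Fraction libraries had 235471 to 673322 tags in peaks, input libraries 1353 to 484305 and enriched libraries 519 to 86419; 16 libraries, all from the APEX lines, had under 10000. Values are counts per 1000000 (CPM), where the denominator is each library's total as the authors used it. Of 13 hepatocyte marker genes, 11 had tags in exonic peaks (APOA1 and TTR had none), and their summed level was 1470 to 2273 CPM in the mock cytoplasm against 511 to 575 CPM in the mock nucleus. With arsenite it was 693 to 840 CPM in the cytoplasm and 350 to 419 CPM in the nucleus. Of 9 markers of blood cells, fibroblasts, endothelium and bile duct, 0 had tags. The nuclear-retained RNAs MALAT1 and NEAT1 summed to 2788 to 3124 CPM in the mock nuclear fraction and 2265 to 2829 CPM in the mock cytoplasmic fraction, so the nuclear marker RNAs were far from depleted in the libraries labelled cytoplasmic.

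Oxidative phosphorylation couples electron transfer through complexes I to IV of the inner mitochondrial membrane to proton pumping, and complex V uses the proton gradient to make ATP. Most subunits are encoded in the nucleus, translated in the cytosol and imported, while a small core is encoded by mitochondrial DNA. Hepatocytes are rich in mitochondria and depend on this pathway. HuR shuttles between nucleus and cytoplasm, binds U-rich and AU-rich stretches in introns and 3′UTRs, and is known for stabilising mRNAs. A tag count rises with HuR binding and with the amount of RNA present, and these cannot be told apart here.

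Only member peaks that fall close to a transcription start could be shown as sequence, because the bases at hand are windows around RefSeq start sites (GRCh38.p14). They show 3 of the 7 member peaks in 5′UTRs, the 20 peak bases in capitals and 5 flanking bases on either side in lower case, on the strand of the gene and written 5′ to 3′. The peaks are UQCRC2 (a core protein of complex III) at chr16:21953383-21953403 on the plus strand with 11 tags, NDUFA4 (named COXFA4 in RefSeq) at chr7:10940064-10940084 on the minus strand with 8 tags, and COX7B (a subunit of complex IV) at chrX:77899475-77899495 on the plus strand with 36 tags.
UQCRC2 5′UTR: ttcctTTAATCCGGCAGTGACCGTGtgtca
NDUFA4 5′UTR: ctcctTTCCAGTCGGAGACCTCTGCcgcaa
COX7B 5′UTR: tttcaGCTCACTTCAAGGGTACCTGaagcg
Each peak has 5 T among its 20 bases and 11, 12 and 11 G or C, respectively. Coordinates are those of the deposited table, in which end minus start is 20.

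A larger share of member peaks than of peaks in general lay in 3′UTRs. By the table's own annotation 147 (21.0%) were in 3′UTRs, against 9.71% of all peaks, and 388 (55.5%) were in introns, against 55.5% of all peaks. Among the 302856 peaks with a gene name, which members need by their rule, 12.4% were in 3′UTRs and 70.7% in introns. Of the 147 member peaks classed as 3′UTR, 90 are also annotated as intron. A further 107 (15.3%, against 11.2%) were classed as non-coding RNA, 22 as transposable element, 17 as other, 10 as coding sequence, 7 as 5′UTR and 1 as snoRNA. Intron peaks held 5068 tags from 57 genes, 3′UTR peaks 3493 tags from 45 genes, and the single snoRNA peak 394 tags.

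The tags were spread unevenly over the complexes, with NDUFA4 (79 tags) counted in complex IV. Complex I genes (26 names) had 250 peaks and 4070 tags, the assembly and other factors (14 names) 223 peaks and 3004 tags, complex V (14 names) 68 peaks and 1734 tags, complex IV (11 names) 60 peaks and 1431 tags, and complex III (8 names) 22 peaks and 296 tags. RefSeq lists 101 nuclear coding genes that match the naming rule; 72 had a peak and 29 had none. Those without a peak include ATP5F1D, ATP5ME and ATP5MF of the ATP synthase, COX6B1 and COX8A of complex IV, NDUFA2, NDUFS3 and NDUFS8 of complex I, and UQCRC1 of complex III. No peak in this table does not show that HuR is absent from an mRNA, since the peak caller and its threshold are not given in the sources used here.

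A few genes carried much of the signal. The 10 strongest peaks held 19.4% of member tags, 10 genes had 20 or more peaks, and 15 had 1. NDUFV2, an iron-sulfur core subunit of complex I (ENSG00000178127), had 865 tags, 796 of them in 27 peaks classed as non-coding RNA. ATP5F1B, the catalytic beta subunit of the ATP synthase (ENSG00000110955), had 834, NDUFS1, the largest iron-sulfur core subunit of complex I (ENSG00000023228), 765, and COX7A2L, which helps join complexes III and IV into supercomplexes (ENSG00000115944), 702. COX10, which makes the haem A precursor for complex IV (ENSG00000006695), had 682, and COX16, a complex IV assembly factor (ENSG00000133983), 649. The non-coding COX10-DT (ENSG00000236088) had more than any coding gene, 1081 tags in 74 peaks.

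The gene name in the table did not always mean the gene's own last exon. Of the members, 587 lay inside the RefSeq span of the gene they are named for and 112 outside it, of which 72 were COX10-DT, 22 COX16 and 10 COX10; where a strand was known for both, it was the same in 622 of 622. The 16 peaks classed as NDUFA10 3′UTR lay 68.1 to 121 kb upstream of that gene's RefSeq end, and the 4 classed as COX7A2L 3′UTR lay 14.4 to 15.6 kb upstream of its end. Both sets lie inside the gene's span, where other transcripts of the gene may end. Of the 6 COX16 3′UTR peaks, the strongest (chr14:70326278-70326298, 336 of 375 tags) was 1198 nt from the RefSeq end of COX16. The other 5, with 39 tags, lay in the span of the neighbouring SYNJ2BP and of the SYNJ2BP-COX16 readthrough. The snoRNA peak of ATP5F1B (chr12:56645033-56645053, 394 tags) lies within SNORD59A and its strongest intron peak (chr12:56643691-56643711, 291 tags) within SNORD59B. Both snoRNAs are processed from introns of the ATP5F1B transcript, so tags there can come from the snoRNA, the intron or both.

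The fractions address where in the cell HuR contacts these transcripts. In mock cells, summed 3′UTR signal of the members was 91.8, 104 and 117 CPM in the nuclear libraries and 234, 293 and 332 CPM in the cytoplasmic libraries. The groups did not overlap, and the cytoplasm was higher. Summed intron signal went the other way, at 320 ± 20.4 CPM (SD, n = 3) in the nucleus and 211 ± 21.7 CPM (SD, n = 3) in the cytoplasm. With arsenite the 3′UTR sums drew closer, at 110, 116 and 122 CPM in the nucleus and 164, 194 and 161 CPM in the cytoplasm. The intron sums were then 251 ± 9.72 CPM and 245 ± 16.1 CPM (SD, n = 3 each) and overlapped. Of all 3′UTR tags, members made up 0.261% (mean of 3) in the mock nucleus, 0.170% in the arsenite nucleus, 0.179% in the mock cytoplasm and 0.189% in the arsenite cytoplasm.

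By complex the sums were as follows, with no test between complexes. The 3′UTR sum of the assembly factors was 26.9 ± 5.48 CPM in the mock nucleus, 99.6 ± 17.6 CPM in the mock cytoplasm and 30.7 ± 4.42 CPM in the arsenite cytoplasm (SD, n = 3 each), and much of it was COX16, described below. For complex I the same values were 43.3 ± 4.85, 69.3 ± 5.65 and 64.5 ± 6.44 CPM, so its cytoplasmic mean moved by less than 1 SD with arsenite. Complex IV, where COX7A2L held 624 of the 740 3′UTR tags, had 17.0 ± 4.81, 58.5 ± 16.7 and 42.7 ± 5.29 CPM, and complex V 16.2 ± 4.48, 47.6 ± 8.90 and 29.9 ± 5.86 CPM. Complex III was lowest, at 0.789 ± 0.736, 11.5 ± 5.54 and 5.11 ± 1.49 CPM. Among introns, the complex V sum was 63.2 ± 11 CPM in the mock nucleus and 26.8 ± 4.87 CPM in the mock cytoplasm (SD, n = 3 each).

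**Figure D1:**
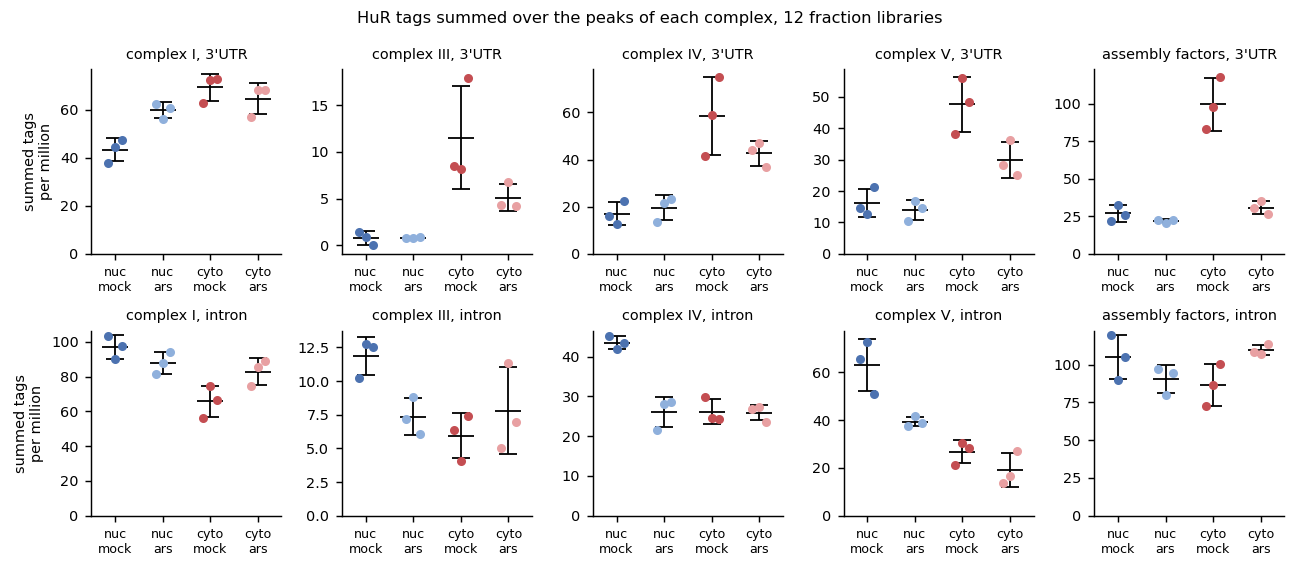
Summed CPM of member 3′UTR peaks (top row) and intron peaks (bottom row) in each of the 12 fraction libraries (points), with the mean and SD of each group of 3 (bars), for complexes I, III, IV and V and the assembly factors. The 3′UTR sum of the assembly factors is near 100 CPM only in the mock cytoplasm (99.6 ± 17.6), while that of complex I stays similar in the cytoplasm with arsenite.

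In mock cells, 22 of 112 member gene sums (a gene's peaks of one annotation class added up) differed between the fractions, 10 higher in the nucleus and 12 higher in the cytoplasm (limma, adjusted p below 0.05 by Benjamini-Hochberg over all sums). Over all genes, 29% of sums were called. In 3′UTRs 2 of 33 sums were higher in the nucleus and 9 in the cytoplasm, against 0.737% and 49.8% of all 3′UTR sums. The median log2 difference, nucleus minus cytoplasm, was −0.45 for the members and −0.98 for all. In introns 5 of 45 were higher in the nucleus and 1 in the cytoplasm, against 24.8% and 1.93% of all, with medians of 0.19 and 0.47. At the level of single peaks 2 of 312 were higher in the nucleus and 9 lower, where 2.82% of all peaks were called. This is a limited depth: 63 to 121 member 3′UTR tags per mock nuclear library and 220 to 315 per mock cytoplasmic library carry these tests.

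By complex, the 3′UTR sums called higher in the mock cytoplasm were 1 of 12 in complex I, 2 of 2 in complex III, 1 of 5 in complex IV, 3 of 7 in complex V and 2 of 7 among the assembly factors. No 3′UTR sum of complexes III, IV or V or of the assembly factors was called higher in the nucleus.

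COX16 and COX10, both needed to build complex IV, had the most negative log2 differences among member 3′UTR sums. COX16 had 4.37, 10.0 and 5.79 CPM in the nuclear mock libraries and 39.4, 59.1 and 78.0 CPM in the cytoplasmic mock libraries. The difference was −2.76 on the log2 scale (SE 0.30, limma adjusted p = 1.4e-05), and no nuclear library reached the cytoplasmic ones. COX10 had 0, 0.909 and 0 CPM in the nucleus and 13.8, 16.3 and 14.8 CPM in the cytoplasm (log2 difference −2.75, SE 0.34, limma adjusted p = 4.8e-05). Its 3′UTR peak at chr17:14207366-14207386 had 0 tags in all 3 nuclear mock libraries. All log2 differences here are of log2(CPM + 2.28), which understates the change of low genes.

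COX7A2L followed, with 11.7, 6.36 and 11.6 CPM in the nucleus against 39.4, 54.0 and 67.5 CPM in the cytoplasm (log2 −2.20, SE 0.27, limma adjusted p = 4.0e-05). NDUFS1 had 2.91, 14.5 and 12.6 CPM in the nucleus and 38.3, 37.7 and 30.6 CPM in the cytoplasm (log2 −1.79, SE 0.37, limma adjusted p = 0.0028). In both genes the groups were apart, although 1 nuclear NDUFS1 library was well below the other two. NDUFS1 had called peaks at chr2:206122675-206122695 and chr2:206123326-206123346, with log2 differences of −1.84 and −2.28.

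In the ATP synthase the membrane subunits g (ATP5MG) and c (ATP5MC3) and the central-stalk subunit gamma (ATP5F1C) had higher 3′UTR sums in the cytoplasm. ATP5MG had 1.46, 1.82 and 4.83 CPM in the nucleus and 11.7, 16.3 and 17.9 CPM in the cytoplasm (log2 −1.86, SE 0.34, limma adjusted p = 0.0012). ATP5MC3 had 0, 5.46 and 4.83 against 12.8, 18.3 and 15.8 CPM (log2 −1.83, SE 0.43, limma adjusted p = 0.0062). ATP5F1C had 0, 0.909 and 0 against 3.19, 13.2 and 5.27 CPM (log2 −1.76, SE 0.43, limma adjusted p = 0.0077). In each of these genes the groups did not overlap. ATP5IF1, the protein inhibitor of the ATP synthase, had 2 peaks with 13 tags in all libraries, and its 3′UTR sum was at most 1.14 CPM in any fraction library, too low to compare.

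In complex III the hinge protein UQCRH had 1.46, 0 and 0 CPM in the nucleus and 5.32, 4.07 and 6.33 CPM in the cytoplasm (log2 −1.47, SE 0.37, limma adjusted p = 0.0090). UQCRB, which lies near the ubiquinone site, had 0 in all 3 nuclear libraries and 2.13, 2.04 and 4.22 CPM in the cytoplasm; it was called (limma adjusted p = 0.012), but its cytoplasmic mean is below what 3 tags per nuclear library would give, so no fold is given. These are differences of a handful of tags, since the 3′UTR peaks of UQCRH and UQCRB held 33 and 31 tags over all 58 libraries. UQCRH and UQCRHL are close copies, and UQCRHL had 1 peak with 9 tags. How the authors treated reads that map to both is not given in the sources used here.

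**Figure D2:**
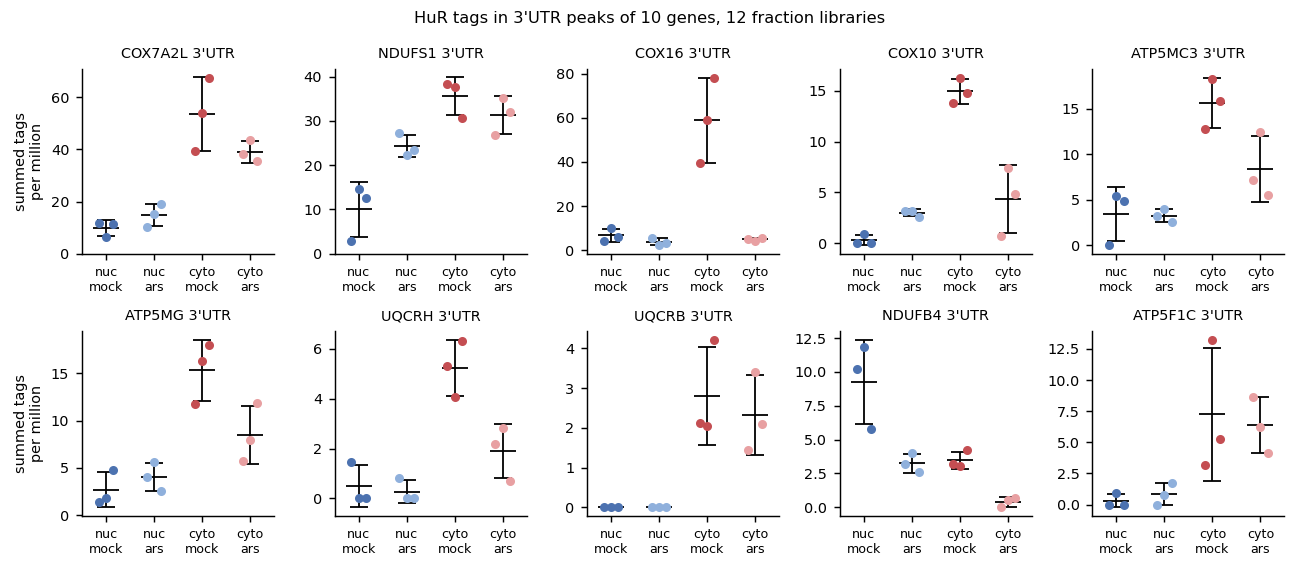
Summed 3′UTR CPM of 10 member genes in each of the 12 fraction libraries (points), with mean and SD of each group of 3. COX16 and COX10 are highest in the mock cytoplasm (COX16 39.4 to 78.0 CPM there), COX7A2L has 35.5 to 43.8 CPM in the arsenite cytoplasm, and NDUFB4 is higher in the mock nucleus than in the mock cytoplasm.

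Against this direction, NDUFB4, an accessory subunit of complex I, had a higher 3′UTR sum in the nucleus. It had 10.2, 11.8 and 5.79 CPM in the nucleus and 3.19, 3.06 and 4.22 CPM in the cytoplasm (log2 0.97, SE 0.34, limma adjusted p = 0.046). The libraries of the fractions did not overlap. Of all 3′UTR sums tested only 0.737% were called in this direction, and the NDUFB4 call was at the threshold, with an adjusted p of 0.0501 by edgeR. The 5′UTR of NDUFB1, another accessory subunit of complex I, had 4.37, 2.73 and 0.966 CPM in the nucleus and 0 in all 3 cytoplasmic libraries (limma adjusted p = 0.023), again below the 3-tag floor and with no fold.

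The coding-sequence peak of NDUFC2, a complex I accessory subunit, was higher in the cytoplasm (0, 0 and 1.93 against 3.19, 8.15 and 11.6 CPM, log2 −1.72, limma adjusted p = 0.0098). The coding-sequence sum of ATP5MK, a small membrane subunit of the ATP synthase, was 0 in all nuclear libraries and 1.06, 3.06 and 1.05 CPM in the cytoplasm, below that floor too (limma adjusted p = 0.046, edgeR adjusted p = 0.054). The 3′UTR sum of NDUFA10, an accessory subunit of complex I, did not pass the test (log2 0.58, SE 0.33, limma adjusted p = 0.21). Nor did those of NDUFAF5, a complex I assembly factor (log2 0.33, SE 0.31, limma adjusted p = 0.46), and COX7A2, a complex IV subunit (log2 0.52, SE 0.38, limma adjusted p = 0.33).

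By mean intron sum over the fraction libraries COX10 (26.3 CPM), NDUFA10 (20.1 CPM) and NDUFAF2 (19.6 CPM) were highest among members. Of the intron and snoRNA sums called higher in the mock nucleus, those of ATP5F1B had the largest log2 differences. Its intron sum was 27.7, 40.0 and 22.2 CPM in the mock nucleus and 5.32, 9.17 and 6.33 CPM in the mock cytoplasm (log2 1.79, SE 0.28, limma adjusted p = 0.00038). The snoRNA peak was 23.3, 28.2 and 23.2 CPM against 5.32, 7.13 and 8.44 CPM (log2 1.56, SE 0.26, limma adjusted p = 0.00052). Every nuclear library was above every cytoplasmic one for both. The single intron peak within SNORD59B was 20.3 ± 5.57 CPM in the nucleus and 1.03 ± 1.02 CPM in the cytoplasm (SD, n = 3 each).

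Other introns called higher in the mock nucleus were those of NDUFAF2, a complex I assembly factor (29.1, 28.2 and 23.2 against 5.32, 10.2 and 19.0 CPM, log2 1.20, limma adjusted p = 0.015), and of ATP5F1C (log2 1.01, limma adjusted p = 0.022). The introns of COX5A, a complex IV subunit (29.1, 25.5 and 23.2 against 12.8, 16.3 and 10.5 CPM, log2 0.88, limma adjusted p = 0.015), and of NDUFA10 (log2 0.82, limma adjusted p = 0.037) were also called. In ATP5F1C the 3′UTR and the introns therefore differed in opposite directions between the fractions. The intron of COX19, a complex IV assembly factor, was the exception, with 2.91, 1.82 and 1.93 CPM in the nucleus and 4.25, 11.2 and 7.38 CPM in the cytoplasm (log2 −1.08, limma adjusted p = 0.045). The non-coding COX10-DT had 67.0, 56.4 and 52.1 CPM in the nucleus and 34.0, 27.5 and 27.4 CPM in the cytoplasm (log2 0.93, SE 0.19, limma adjusted p = 0.0028), with no overlap. COX10 itself, on the other strand, had 30.6, 20.9 and 21.2 CPM of intron signal in the nucleus. It had 23.4, 16.3 and 13.7 CPM in the cytoplasm, and the groups overlapped and were not called.

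**Figure D3:**
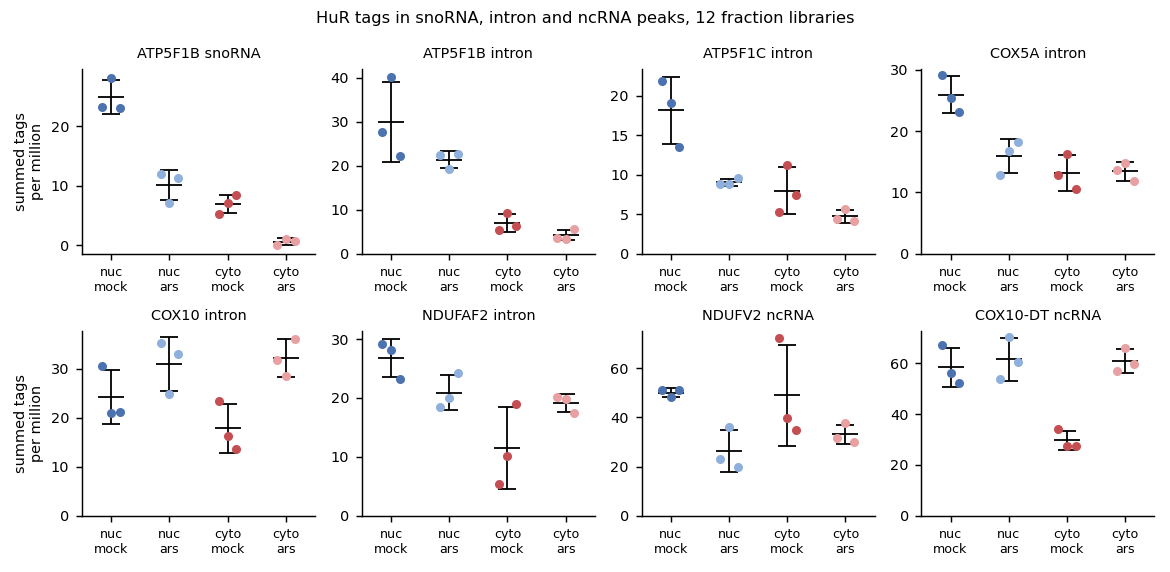
CPM of the ATP5F1B snoRNA peak, of intron sums of ATP5F1B, ATP5F1C, COX5A, COX10 and NDUFAF2, and of the non-coding sums of NDUFV2 and COX10-DT in each of the 12 fraction libraries (points), with mean and SD of each group of 3. The ATP5F1B snoRNA peak runs from 23.2 to 28.2 CPM in the mock nucleus down to 0 to 1.14 CPM in the arsenite cytoplasm, whereas COX10-DT is lowest in the mock cytoplasm (27.4 to 34.0 CPM).

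With arsenite the same comparison of fractions called 3 of 113 member sums higher and 3 lower in the nucleus, against 4.72% of all sums. In 3′UTRs these were 1 and 3 of 34 (0.998% and 9.67% of all 3′UTR sums), and in introns 1 and 0 of 48 (1.33% of all were higher). The ATP5F1B intron had 22.4, 19.2 and 22.5 CPM in the nucleus and 3.61, 3.41 and 5.56 CPM in the cytoplasm (log2 1.88, SE 0.25, limma adjusted p = 2.3e-05). Its snoRNA peak had 12, 7.20 and 11.3 against 0, 1.14 and 0.696 CPM (log2 2.10, SE 0.33, limma adjusted p = 0.00022). Both ATP5F1B features were thus higher in the nucleus in each treatment.

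Of the cytoplasmic 3′UTRs, COX7A2L remained called, with 10.4, 15.2 and 19.1 CPM in the nucleus and 38.3, 43.8 and 35.5 CPM in the cytoplasm (log2 −1.30, SE 0.20, limma adjusted p = 0.00025). ATP5F1C (0, 0.800 and 1.73 against 8.66, 6.25 and 4.17 CPM, log2 −1.47, limma adjusted p = 0.012) and UQCRB (limma adjusted p = 0.030, with 0 in all nuclear libraries and no fold above the 3-tag floor) were called as well. COX16 and COX10 were not. Single peaks called were the ATP5F1B intron and snoRNA peaks, 2 of 408 members against 0.257% of all peaks.

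Arsenite within the cytoplasm addresses what stress changes there. It shares the mock cytoplasmic libraries with the fraction comparison, so a gene high in those 3 libraries enters both. Of 118 member sums 2 rose and 5 fell, against 13% of all sums called. In 3′UTRs 0 of 37 rose and 3 fell (18.4% of all fell), and in introns 1 of 44 rose (13.1% of all rose).

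COX16 fell from 39.4, 59.1 and 78.0 CPM to 5.05, 3.98 and 5.56 CPM (log2 −3.05, SE 0.26, limma adjusted p = 2.5e-06), and its arsenite libraries lay in the range of the nuclear ones. COX10 fell from 13.8, 16.3 and 14.8 CPM to 0.722, 7.39 and 4.87 CPM (log2 −1.54, SE 0.37, limma adjusted p = 0.013). The third 3′UTR that fell was NDUFB4, from 3.19, 3.06 and 4.22 to 0, 0.568 and 0.696 CPM (log2 −1.10, SE 0.31, limma adjusted p = 0.031). The groups were separate in all of them. COX7A2L and NDUFS1 had 35.5 to 43.8 CPM and 26.7 to 35.2 CPM with arsenite and were not called. The COX16 fall was called in each of the 6 fits that left out 1 library, the COX10 fall in 0 of them.

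The ATP5F1B snoRNA peak fell from 5.32, 7.13 and 8.44 CPM to 0, 1.14 and 0.696 CPM (log2 −1.68, SE 0.35, limma adjusted p = 0.0050), and NDUFC2 coding sequence fell to 0, 1.71 and 0.696 CPM (log2 −1.62, limma adjusted p = 0.015). COX10-DT and the COX10 introns moved upwards. The COX10-DT peaks lie over chr17:13778317-14031943, and 72 of the 74 are outside that transcript's RefSeq span. COX10-DT rose from 34.0, 27.5 and 27.4 CPM to 57.0, 65.9 and 59.8 CPM (log2 0.99, SE 0.18, limma adjusted p = 0.0022). COX10 introns rose from 23.4, 16.3 and 13.7 CPM to 31.8, 28.4 and 36.2 CPM (log2 0.80, SE 0.23, limma adjusted p = 0.029). Within them a peak at chr17:14088635-14088655 rose from 2.45 ± 0.646 to 11.9 ± 2.37 CPM (SD, n = 3 each, limma adjusted p = 0.032 over all peaks). That peak made up much of the rise of the COX10 intron sum. Of 351 member peaks 1 rose and 2 fell, against 0.76% of all.

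In the nucleus arsenite changed 3 of 105 member sums, 1 up and 2 down, against 5.84% of all. NDUFS1 3′UTR rose from 2.91, 14.5 and 12.6 CPM to 27.2, 22.4 and 23.4 CPM (log2 1.28, SE 0.36), with a limma adjusted p of 0.0495 that sits at the threshold, although the libraries do not overlap. Leaving out 1 library at a time, it was called in 1 of 6 fits. The ATP5F1B snoRNA peak fell from 23.3, 28.2 and 23.2 to 12, 7.20 and 11.3 CPM (log2 −1.14, SE 0.23, limma adjusted p = 0.0087). The non-coding NDUFV2 peaks fell from 51.0, 48.2 and 51.2 to 23.2, 36.0 and 19.9 CPM (log2 −0.91, SE 0.20, limma adjusted p = 0.014). In 3′UTRs this was 1 of 29 sums (13.6% of all rose) and in introns 0 of 47 (3.47% of all called). An unadjusted limma p under 0.05 was found for 4 of the 47, against 1382 of all 8216 intron sums. Of the member intron sums 14 of 47 had a positive difference (3282 of 8216 over all genes). Their median was −0.28, where the median of all intron sums was −0.10. The COX10 intron peak that rose in the cytoplasm was the sole peak of 343 called in the nucleus (0.186% of all), at 0.303 ± 0.525 CPM mock and 10.4 ± 2.41 CPM with arsenite (SD, n = 3 each, limma adjusted p = 0.011).

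Whether the fraction difference itself changed with arsenite was tested as an interaction (nucleus minus cytoplasm with arsenite, less the same in mock). It was called in 6 of 139 member sums, 4 positive and 2 negative, against 10.5% of all sums. In 3′UTRs it was 3 of 41, all positive (23.9% of all), and in introns 1 of 52, negative (8.99% of all). COX10 changed by 2.59 (SE 0.52, limma adjusted p = 0.00019), COX16 by 2.51 (SE 0.43, limma adjusted p = 9.3e-06) and NDUFS1 by 1.45 (SE 0.38, limma adjusted p = 0.0048) on the log2 scale. The values behind it differed by gene. COX16 fell in the cytoplasm. COX10 fell there too, and in the nucleus it went from 0, 0.909 and 0 CPM to 3.20, 3.20 and 2.60 CPM, which do not overlap but were not called (log2 1.05, SE 0.31, limma adjusted p = 0.064). NDUFS1 was called higher in the nucleus and had 30.6 to 38.3 and 26.7 to 35.2 CPM in the cytoplasm without and with arsenite.

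The same test called NDUFC2 coding sequence (log2 1.73, limma adjusted p = 0.026, edgeR adjusted p = 0.22), NDUFAF2 introns (−1.09, limma adjusted p = 0.046, edgeR adjusted p = 0.059) and COX10-DT (−0.92, SE 0.26, limma adjusted p = 0.012). The negative values mean that the nuclear excess shrank: COX10-DT had 53.6, 70.4 and 60.6 CPM in the arsenite nucleus and 57.0, 65.9 and 59.8 CPM in the arsenite cytoplasm. For NDUFAF2 introns the arsenite libraries spanned 18.4 to 24.3 CPM in the nucleus and 17.4 to 20.2 CPM in the cytoplasm. Among single peaks 3 of 635 were called (0.352% of all), 1 each in the 3′UTRs of COX10, NDUFS1 and COX16, with interactions of 2.75, 2.58 and 2.51.

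**Figure D4:**
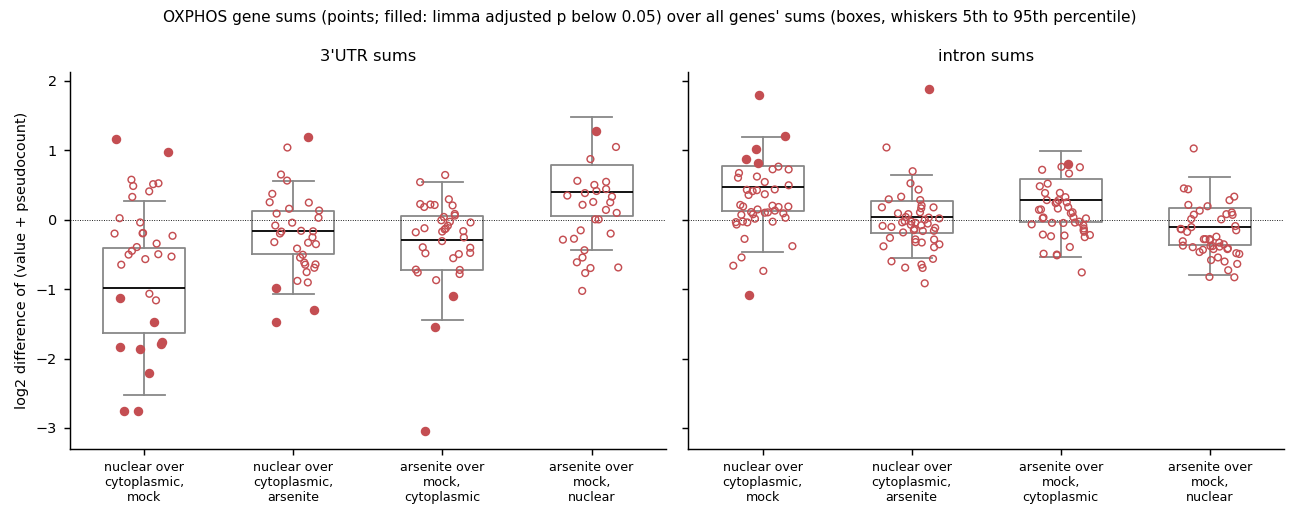
Log2 differences of member gene sums (points; filled where the limma adjusted p is below 0.05) over boxes of all genes' sums (whiskers at the 5th and 95th percentile), for 3′UTR and intron sums in 4 comparisons of the fractions. In the mock comparison the member 3′UTR median of −0.45 is nearer 0 than the −0.98 of all 3′UTR sums, and COX16 lies lowest among members in the cytoplasmic arsenite comparison (−3.05).

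The APEX lines ask which of these contacts lie near each bait, but the members are close to the detection limit there. Enriched libraries held 4 to 10 member 3′UTR tags (NLS mock), 1 to 9 (NLS arsenite), 0 to 4 (NES mock), 1 to 7 (NES arsenite), 0 to 42 (G3BP mock) and 0 to 44 (G3BP arsenite). In mock cells limma called 5 of 9 member sums tested for NLS against NES, where 21% of all were called: the non-coding NDUFV2 peaks and the introns of NDUFS4, a complex I accessory subunit, ATP5F1C, COX10 and COX7A2. These passed the filter through the NLS group alone, with 1 to 6 tags per NLS library and 0 in all 4 NES libraries. At 3 tags per NES library the NES level would be above the NLS mean in each, so the calls show no difference in level, and with edgeR 0 of them were called. NDUFV2 had 6, 2, 1 and 3 tags in the NLS mock libraries.

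With arsenite limma called 2 of 4 member sums, against 14.4% of all, again with 0 calls by edgeR. COX10-DT had 2, 6, 7 and 1 tags in the NLS libraries and 0, 0, 1 and 0 in the NES libraries (limma adjusted p = 0.048). NDUFV2 had 1, 4, 3 and 2 tags against 0 in all 4 (limma adjusted p = 0.044), below the 3-tag floor of the NES libraries. In each treatment, replicates 1 and 2 of the NLS group did not differ detectably beyond sampling noise, nor did NES arsenite 1 and 2. The same held for G3BP mock 3 and 4 and G3BP arsenite 4 and 5. Counted as 1 sample each, such pairs gave 7 calls among 12 member sums in mock (772 of 3956 over all genes) and 0 of 10 with arsenite (173 of 5230).

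In the main fits, which combined library sets, G3BP showed no member call. The tests against NES used sets JL0388 and JL1024, so the G3BP libraries of JL0361 did not enter them. Within JL1024 alone, 7 of 18 member sums were called against NES in mock (2390 of 6005 over all genes). With arsenite it was 1 of 6 (682 of 3709). In mock cells 0 member sums passed the filter against NES, and with arsenite 0 of 2 were called (2.42% of all). An unadjusted limma p under 0.05 was found for 0 of the 2, against 461 of all 2359 sums. Among member 3′UTRs, COX16 had the most tags in the G3BP arsenite libraries. It had 18 and 26 tags in replicates 2 and 3 (29.8 and 49.6 CPM), 1 tag in replicate 4 and 0 in the other 4. Both high libraries belong to set JL0361, which is not in the tests against NES. In G3BP mock libraries COX16 had 2 and 10 tags in replicates 5 and 6 and 0 in the other four, so the groups overlap.

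Arsenite against mock within a bait called 0 of 15 member sums for NLS, 0 of 2 for NES and 0 of 2 for G3BP by limma. Over all genes 0% of sums were called in each test. An unadjusted limma p under 0.05 was found for 0 members. Over all genes it was found for 352 of 5461 sums in NLS, 107 of 1614 in NES and 426 of 2646 in G3BP. For G3BP within library set JL0388 alone, 2 of 2 member sums were called, where 1098 of 2217 were called over all genes. In the input of the 3 lines 0 of 36 were called, against 0% of all. With an unadjusted limma p under 0.05 there were 3 of the 36, against 1199 of all 11740 sums. They were COX10 3′UTR (log2 0.76), NDUFB4 3′UTR (−0.83) and NDUFA5 3′UTR, of a complex I accessory subunit (0.73). By edgeR 2 members were called, both lower with arsenite, where it called 688 of all 11740 sums higher and 117 lower. The COX16 3′UTR, which fell in the cytoplasmic fraction, differed by 0.22 (SE 0.44) in the input and was not called (limma adjusted p = 0.87).

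Other genes of the pathway, outside the naming rule, give the context. Of 52 such nuclear genes 43 had a peak. In the mock comparison of fractions 8 of their 77 sums were higher in the nucleus and 11 in the cytoplasm, where 29% of all sums were called, and in the arsenite cytoplasm 6 of 83 rose and 1 fell, where 13% of all were called. Succinate dehydrogenase (complex II) was sparse, with SDHA at a mean 3′UTR sum of 2.19 CPM over the fraction libraries and SDHC at 2.11 CPM, and SDHC 3′UTR was higher in the mock cytoplasm (log2 −1.09, limma adjusted p = 0.030). So was that of CYCS, the electron carrier cytochrome c (−1.33, limma adjusted p = 0.0020).

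Among the regulators of the pathway 1 of 23 sums was higher in the mock nucleus and 5 in the cytoplasm. All 5 were 3′UTRs, of which 49.8% were called in this direction over all genes, and belong to factors that drive nuclear or mitochondrial respiratory genes: GABPB1 (log2 −2.37, limma adjusted p = 1.7e-05), YY1 (−2.17), TFAM (−2.11), GABPA (−1.36) and NRF1 (−1.30). GABPB1 3′UTR fell in the cytoplasm with arsenite (−1.46), and YY1 and NRF1 rose in the nucleus (1.53 and 1.20). The interaction was 2.44 for GABPB1 (limma adjusted p = 2.0e-07), 2.12 for YY1 and 1.35 for TFAM. Among the remaining assembly factors 4 of 46 sums, the 3′UTRs of NUBPL, COA5, HIGD1A and TIMMDC1, were higher in the mock cytoplasm. In the mock nucleus 7 were higher, all introns. Over all genes, 29% of sums were called. In 3′UTRs 49.8% were higher in the cytoplasm, and in introns 24.8% were higher in the nucleus.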

How the data were processed

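The members, gene lists and tests were chosen with earlier results of these data known. The authors deposited their signal as 1 table with a row per peak and a column per library. Each entry equals a tag count over a total of that library, as read from the values, 100% of which were whole tags within 0.01 tag. The library totals ranged from 4662 to 2622677. Per the submitters' processing notes, reads were handled with Bowtie2, SAMtools, bedtools and HOMER on GRCh38.p14; the peak caller, its settings and the handling of reads with several matches are not given in the sources used here. Of 395471 lines, 8257 repeated lines were dropped, and 84358 of the remaining peaks carry no gene name. The table's 18 group-summary columns were not used. Members were matched by name, 1 of them (NDUFA4) to RefSeq through a synonym.

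Tests ran on log2(CPM + 2.28), the pseudocount being the typical worth of 1 tag (the median of the libraries' lowest values above 0), with limma 3.58.1 in R 4.3.3, two-sided, adjusted by Benjamini-Hochberg over all peaks or all gene sums (32414 before filtering). A feature was tested when the number of libraries with a tag reached the size of the smaller group. The steps were tested on simulated data. Alternatives were edgeR 4.0.16 on recovered tags, 4-fold larger and smaller pseudocounts, no filter, scaling to tags in peaks, library sets, a replicate block and leaving out each library. Named are the 2 highest 3′UTR genes per complex and of the assembly factors, the 3 highest intron genes, ATP5IF1, the highest succinate dehydrogenase 3′UTR, and up to 3 called members per direction and test whose groups do not overlap; others were named after their values were seen, and 1 called member is not reported here. Within sets, replicate pairs were compared over their counts. Intervals are not given. A planned motif search in 3′UTR peaks was not run.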

Additional observations from a re-analysis of the deposited data

Results flagged for a closer look

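The difference between fractions changed with arsenite, by the interaction test over all features (limma with Benjamini-Hochberg adjustment), in these members: the COX10 3′UTR sum (2.59) and peak (2.75), the COX16 3′UTR sum (2.51) and peak (2.51), the NDUFS1 3′UTR sum (1.45) and peak (2.58), the NDUFC2 coding-sequence sum (1.73), NDUFAF2 introns (−1.09) and COX10-DT (−0.92), all on the log2 scale.

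In all, 51 sets of values were tested, each a member quantity over the libraries of an APEX group of 4 to 7. By Dixon's test 10 held 1 library far from the others. Chance gives about 1 in 20 sets only for normally distributed values. A group with tags in a single library always passes, so the count of 10 does not measure an excess of deviating libraries. All 10 were in enriched libraries. Most hold few tags. The member intron sum of NLS arsenite replicate 2 was 71.3 CPM, where the next library had 27.7 CPM. COX16 3′UTR stood at 14.5 CPM in NLS arsenite replicate 4 and at 26.2 CPM in NES arsenite replicate 2, with 0 in the other libraries of either group. In NES arsenite replicate 2 the COX16 peak at chr14:70326278-70326298 had 0 tags, so the signal comes from the peaks in the SYNJ2BP span. COX7A2L 3′UTR stood at 19.9 CPM in NES mock replicate 2 and at 78.4 CPM, which is 3 tags, in NES arsenite replicate 1. NDUFS1 3′UTR was at 4.46 CPM in NLS arsenite replicate 2, and the NDUFV2 non-coding peaks were at 3.31 CPM in G3BP arsenite replicate 2. COX10-DT stood apart in NES arsenite replicate 3 (2.07 CPM), in G3BP mock replicate 4 (214.5 CPM, a single tag) and in G3BP arsenite replicate 6 (17.1 CPM).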

How the results depend on the processing

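No called member changed direction under any alternative that was run. Leaving out 1 library at a time, counts of called members ranged as follows. For the mock fractions, 11 peaks became 0 (without cytoplasmic replicate 2) to 33 (without nuclear replicate 1), and 22 sums became 10 to 19. For the arsenite fractions, 2 peaks became 0 and 6 sums 2 to 4. For arsenite in the cytoplasm, 3 peaks became 0 to 26 and 7 sums 1 to 7. For arsenite in the nucleus, 1 peak became 0 to 15 and 3 sums 0 to 1. For the interaction, 3 peaks became 0 to 4 and 6 sums 3 to 6. For NLS against NES, 5 mock calls became 0 to 7 and 2 arsenite calls 0. Of the 44 sums called in the fractions, 11 were called in every such fit: in mock, ATP5F1B introns and snoRNA, ATP5MG, COX10-DT, COX10, COX16 and COX7A2L; with arsenite, ATP5F1B introns; in the cytoplasm, COX16; and the COX10 and COX16 interactions. Of the 20 called peaks, 0 were, and the COX10 3′UTR peak in mock lost its call without cytoplasmic replicate 2 alone (adjusted p = 0.075). Sums whose call was lost without 1 library alone were UQCRH in mock (cytoplasmic replicate 3, adjusted p = 0.050), and with arsenite COX7A2L (cytoplasmic replicate 2, 0.12) and the ATP5F1B snoRNA (nuclear replicate 3, 0.080), and the COX10-DT rise (cytoplasmic arsenite replicate 2, 0.059).

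A pseudocount 4 times smaller gave 7 mock peaks, 7 cytoplasmic and 0 nuclear arsenite peaks, and 1 NLS against NES arsenite call; one 4 times larger gave 0 for NLS against NES in both treatments. Without the filter the arsenite fractions gave 5 peaks, and NLS against NES 0 in both treatments. With edgeR there were 6 arsenite fraction peaks, 7 cytoplasmic and 2 nuclear arsenite peaks, 0 for NLS against NES in both treatments, and 2 in the input. Scaling to tags in peaks moved every log2 difference of the mock fractions by 0.14, which gave 5 higher and 9 lower peaks, and turned the nuclear arsenite sums into 0 up and 3 down; NLS against NES with arsenite then had 1 call. Counting indistinguishable pairs once, using set JL1024 alone or leaving out libraries under 10000 tags in peaks each gave 0 for NLS against NES with arsenite. Within JL0388 NLS against NES mock had 8 calls of 11 (2285 of 4922 over all genes) and G3BP arsenite against mock 2 of 2 (1098 of 2217). Within JL1024 G3BP against NES had 7 of 18 in mock (2390 of 6005) and 1 of 6 with arsenite (682 of 3709). With arsenite it had 3 of 11 (627 of 4423) without libraries under 10000 tags, an alternative chosen after seeing the data. The cause was not tested.

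Replicate numbers were shared between groups, but same-numbered fraction libraries did not deviate together (correlations −0.048 to 0.031). With the replicate block, cytoplasmic arsenite peaks were 5 and NLS against NES with arsenite 0; the other counts were within 1.5 times. In the input a block of line, library set and number, chosen after seeing the data, gave 0 of 36 calls, as did the fit with line and set as terms. Enriched libraries held 519 to 86419 tags in peaks, which limits how small a difference they can show.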

Other observations

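The small set of subunits encoded by mitochondrial DNA was also seen. Of 65 peaks on the mitochondrial chromosome, 18 lay in coding sequence of 7 of the 13 subunit genes, with 874 tags. Their sum was 35.9 to 64.2 CPM in the mock cytoplasm and 6.50 to 6.96 CPM in the arsenite cytoplasm, and the 3 libraries of each group did not overlap. In the nuclear fraction it was 17.5 ± 5.68 CPM in mock and 9.49 ± 6.66 CPM with arsenite (SD, n = 3 each), which overlapped. MT-ND4, a complex I subunit, held 8 of the peaks and 366 tags, and its sum was 19.3 ± 11.5 CPM in the mock and 2.60 ± 0.374 CPM in the arsenite cytoplasm (SD, n = 3 each). No test across features was run on these genes.

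Of the 53 sums of nuclear assembly factors outside the naming rule, 5 rose in the arsenite cytoplasm and 0 fell, where 13% of all sums were called. They include the introns of UQCC1, a complex III factor (log2 0.92, limma adjusted p = 0.0070), of COA1 (0.84, limma adjusted p = 0.0053) and of NUBPL, a complex I factor (0.63, limma adjusted p = 0.025). Of all intron sums 13.1% rose in this comparison.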
